A study of Mus musculus with 12 samples.

Results

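The 7 sterol pathway genes described here were followed in the external granule layer of the mouse cerebellum, the zone in which granule neuron precursors divide after birth. They were picked by name for their tie to hedgehog signalling and make up 7 of 53379 gene rows in each deposited table. They are the enzyme genes Hmgcs1, Fdft1, Sqle, Cyp51 and Dhcr7, the gene of the sterol-sensing retention protein Insig1, and Srebf2, which encodes the transcription factor of the pathway. All were found in the tables and all passed the filter on low counts. None of them encodes a carrier or receptor that takes up cholesterol; uptake is covered by a wider list of 54 sterol genes that includes the members.

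The tissue was cut by laser capture from the central lobules of C57BL/6 mice at postnatal day 6. Conditional SnoN knockout mice (written KO; SnoN is a transcriptional regulator encoded by Skil) gave 6 libraries, numbered 2, 3, 4, 5, 6 and 8, and control littermates, labelled wild type (WT), gave 6, numbered 1, 2, 3, 5, 6 and 7. The sources used here do not name the Cre line or the deleted part of Skil, nor say whether control littermates carry the unrecombined allele. The submitters marked KO4 and WT2 as outliers, so the comparison is of 5 KO with 5 WT libraries, with the marked libraries given beside the members and most other named genes; KO2 is a knockout by its title although its genotype tag says wild type.

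Cholesterol is built from acetyl-CoA through mevalonate, the isoprenoids, squalene and lanosterol. When membrane sterol is scarce, the SREBP proteins leave the endoplasmic reticulum with their escort Scap and switch on the enzyme genes and genes of uptake; when sterol is plentiful, Insig proteins hold Scap back. The developing brain makes its own cholesterol because lipoproteins of the blood do not cross into it. Cholesterol is also part of hedgehog signalling: it is attached to the Sonic hedgehog protein, which Purkinje cells release and granule precursors divide in response to, and sterols bind the signal transducer Smoothened.

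Libraries held between 7520076 and 15083086 gene counts. Nothing in the labels ties each library to an animal of its own, and p-values therefore cover the spread between these libraries, part of which may be technical. Skil, read as a check of the labels, had 36.1, 36.7, 20.9, 30.1 and 29.9 CPM in KO2, KO3, KO5, KO6 and KO8, against 47.5, 57.8, 57.3, 38.5 and 48.5 CPM in WT1, WT3, WT5, WT6 and WT7 (CPM is the count per 1000000 counts in filtered genes after TMM scaling). Every compared KO library was below every compared WT library, and the marked ones lay further out, at 14.0 CPM in KO4 and 76.5 CPM in WT2 (log2 fold change -0.70, SE 0.15, edgeR adjusted p = 0.124).

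SREBP-2, the product of Srebf2, binds sterol response elements next to boxes for the factor NF-Y, and both Srebf2 and the enzyme genes are known to carry such elements. RefSeq windows of 250 bases before the start site (GRCm38.p6) were at hand for 5 members (Hmgcs1, Cyp51, Dhcr7, Insig1 and Srebf2; not for Sqle or Fdft1). The core of the sterol response element, searched as TCACNCCA on both strands, was found in Hmgcs1 and Srebf2, 1 match each, in 2 of the 7 windows of these 5 genes (Dhcr7 has 3). In all windows of that length in the table it occurred in 3.67%. The stretches around the matches are shown, 5′ to 3′ on the strand of the gene, with the sterol element core and the nearest CCAAT box (ATTGG on this strand) in capitals:
Hmgcs1 (chr13:119690164-119690271, plus strand, bases -187 to -80 from the start site): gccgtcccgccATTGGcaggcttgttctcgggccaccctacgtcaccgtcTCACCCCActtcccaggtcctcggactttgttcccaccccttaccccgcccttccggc
Srebf2 (chr15:82147057-82147164, plus strand, bases -212 to -105 from the start site): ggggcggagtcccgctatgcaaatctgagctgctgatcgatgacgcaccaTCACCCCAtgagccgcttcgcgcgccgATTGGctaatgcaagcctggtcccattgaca
Both hold the same 8 letters, TCACCCCA, 137 bases before the start site in Hmgcs1 and 162 bases before it in Srebf2. A CCAAT box (CCAAT on either strand) was found in 5 of the 7 windows and in 33.8% of all windows, and a GC box (GGGCGG on either strand) in 6 of the 7 and in 32.7% of all windows. Each of the 5 genes had at least 1 window with a CCAAT box; for Dhcr7 it was 1 of its 3. Neither overlapped a sterol element core in these members. These are matches of letters, and binding was not measured.

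All 7 members were well expressed in this layer. Per kilobase of exon, Cyp51 stood highest, at 97.0 ± 18.5 CPM per kb in KO and 89.0 ± 7.44 in WT libraries (SD, n = 5 each, as throughout). Hmgcs1 followed at 68.0 ± 6.09 in KO and 60.7 ± 6.22 CPM per kb in WT, and Insig1 at 57.1 ± 8.45 in KO and 56.2 ± 2.44 CPM per kb in WT. Sqle had 34.9 ± 4.09 CPM per kb in KO and 30.8 ± 0.482 in WT. The lowest were Fdft1 (22.1 ± 2.29 in KO and 24.9 ± 2.58 CPM per kb in WT), Srebf2 (21.2 ± 1.43 in KO and 24.2 ± 1.87) and Dhcr7 (10.6 ± 1.94 in KO and 13.1 ± 0.985). The order of the 7 was the same in KO and in WT libraries. The ranges of Hmgcs1 and Insig1 and those of Fdft1 and Srebf2 overlapped in both groups, so these neighbours are not ordered beyond their spread, and Cyp51 and Hmgcs1 overlapped in KO but not in WT. Among the 13442 genes tested, the level per kb put Cyp51 at the 95.5th percentile and Dhcr7, the lowest member, at the 70.7th.

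**Figure D1:**
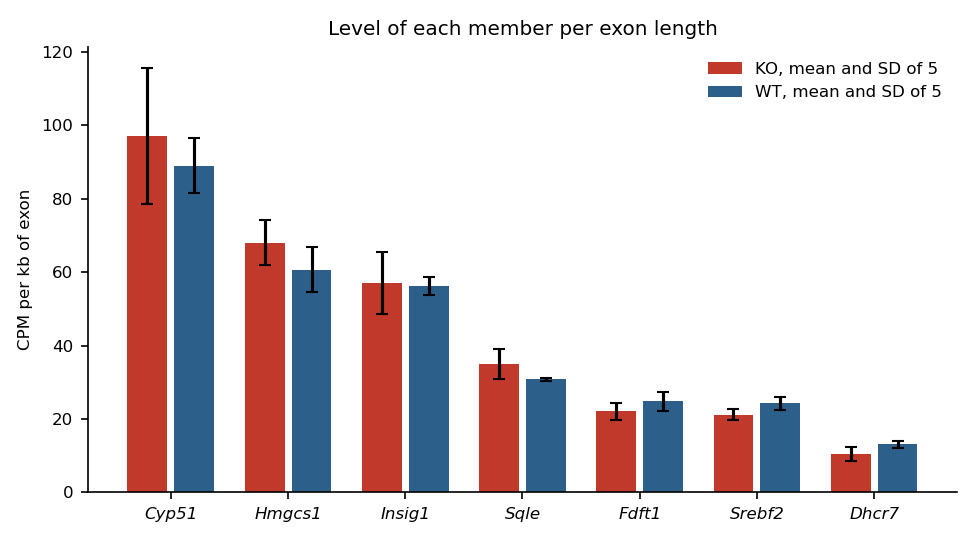
Mean level of each member in CPM per kb of exon (vertical axis), KO in red left of WT in blue; bars are means and whiskers SDs of 5 libraries. Cyp51 stands highest at 97.0 in KO and 89.0 in WT, and Dhcr7 lowest at 10.6 in KO and 13.1 in WT.

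The comparison asked whether loss of SnoN alters sterol pathway transcripts in this layer. By edgeR's quasi-likelihood test, none of the 7 members had an adjusted p under 0.05, whereas 3 of 13442 genes did (0.0223%). With DESeq2 0 of 7 passed (3.34% of all genes), with no filter on low counts 0 (3.49%) and with all 12 libraries 0 (0.00751%). No member had every KO library above every WT library (1.04% of all genes tested) or every one below (1.31%). Unadjusted, 1 of 7 was under 0.05, Dhcr7, lower in KO; the share of all genes tested that were lower at that level was 9.97%. Their median log2 fold change was 0.02, against 0.00 over all genes tested. Estimates ran between 19.1% lower, for Dhcr7, and 13.5% higher, for Sqle, and no 95% interval reached beyond 32.4% lower or 31.0% higher.

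Dhcr7 encodes the reductase that makes cholesterol from its last precursor, and its loss in people causes Smith-Lemli-Opitz syndrome. It had 57.0, 45.7, 73.0, 71.5 and 59.7 CPM in KO2, KO3, KO5, KO6 and KO8, against 74.0, 73.6, 73.7, 86.1 and 72.3 CPM in WT1, WT3, WT5, WT6 and WT7. All but KO5 were below every compared WT library; KO5 lay inside the WT range, and the groups overlapped by that library alone. The means were 61.4 ± 11.3 CPM in KO and 75.9 ± 5.73 CPM in WT, with log2 fold change -0.31 and SE 0.12 (edgeR unadjusted p = 0.0232, adjusted p = 0.174; two-sided exact permutation p = 0.0159). Without KO5, Dhcr7 passed at a log2 fold change of -0.38 (adjusted p = 0.0221), in a fit in which 22.9% of all genes tested passed. KO4 and WT2 stood the other way round, at 90.8 CPM in KO4 and 48.2 CPM in WT2. Adding both gave a log2 fold change of -0.11 (edgeR adjusted p = 0.999).

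Srebf2 had 164, 135, 154, 155 and 151 CPM in the 5 KO libraries, in the order KO2 to KO8, against 162, 178, 159, 190 and 182 CPM in WT1 to WT7. KO2 alone was above the lowest WT libraries, WT5 and WT1. The means were 152 ± 10.3 CPM in KO and 174 ± 13.4 CPM in WT, with log2 fold change -0.19 and SE 0.09 (edgeR unadjusted p = 0.0533, adjusted p = 0.236; exact permutation p = 0.0238). Again KO4 and WT2 stood the other way round, at 172 CPM in KO4 and 119 CPM in WT2. The microRNA gene Mir33 lies within the span of Srebf2 on the same strand. Whether it overlaps exons of Srebf2 was not checked.

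Sqle, squalene epoxidase, which adds the first oxygen to squalene, had 209.8, 217, 165, 174 and 201 CPM in KO2 to KO8, against 171, 174, 168, 167 and 172 CPM in WT1 to WT7. WT libraries were almost level, with a coefficient of variation of 1.57%, which is no larger than the 2.29% that counting error alone gives at their counts. In KO libraries it was 11.7%: KO2, KO3 and KO8 stood above all WT libraries, KO6 just above them and KO5 just below. The means were 194 ± 22.7 CPM in KO and 171 ± 2.67 CPM in WT (log2 fold change 0.18 with SE 0.10, edgeR unadjusted p = 0.0761, adjusted p = 0.276; exact permutation p = 0.111). The marked libraries were at 175 CPM in KO4 and 204 CPM in WT2.

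Hmgcs1, the cytosolic HMG-CoA synthase that feeds the pathway, had 349, 288, 298, 291 and 335 CPM in KO2 to KO8, against 285, 307, 297, 234 and 269 CPM in WT1 to WT7. All 5 KO libraries were above the WT median, but the ranges overlapped. Means of 312 ± 28.0 CPM in KO and 279 ± 28.6 CPM in WT gave log2 fold change 0.16 with SE 0.10 (edgeR adjusted p = 0.349). KO4, at 393 CPM, was the highest of the 12 libraries, and WT2 had 296 CPM.

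Fdft1 encodes squalene synthase, the enzyme at the branch where isoprenoids are committed to sterols. It had 99.6, 76.8, 97.2, 92.9 and 100.4 CPM in KO2 to KO8, against 124, 96.0, 105, 98.5 and 103 CPM in WT1 to WT7. All KO libraries were below the WT median, with overlap (93.4 ± 9.70 CPM in KO and 105 ± 10.9 CPM in WT; log2 fold change -0.17, SE 0.11, adjusted p = 0.354). KO4 had 123 CPM and WT2 75.2 CPM, the opposite order.

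Cyp51, the demethylase that acts on lanosterol, varied most between KO libraries: 505, 419, 297, 430.3 and 488 CPM in KO2 to KO8, against 395, 430.4, 397, 402 and 339.8 CPM in WT1 to WT7. The lowest KO library, KO5, lay below and the highest, KO2 and KO8, above all compared WT libraries (428 ± 81.8 CPM in KO and 393 ± 32.9 CPM in WT; log2 fold change 0.12, SE 0.13, adjusted p = 0.574). KO4 had 336 CPM and WT2, the highest of all, 532 CPM. With all 12 libraries the log2 fold change was -0.01.

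Insig1, itself a target of the SREBP proteins and so a readout of their activity, had 201, 153, 146, 181 and 202 CPM in KO2 to KO8, against 179, 167, 174, 166 and 183 CPM in WT1 to WT7. KO libraries lay on both sides of the WT range, and the means of 177 ± 26.1 CPM in KO and 174 ± 7.53 CPM in WT were the closest of the 7 (log2 fold change 0.02, 95% interval -0.20 to 0.25, adjusted p = 0.918). That sign turned in 6 of 23 alternative fits.

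**Figure D2:**
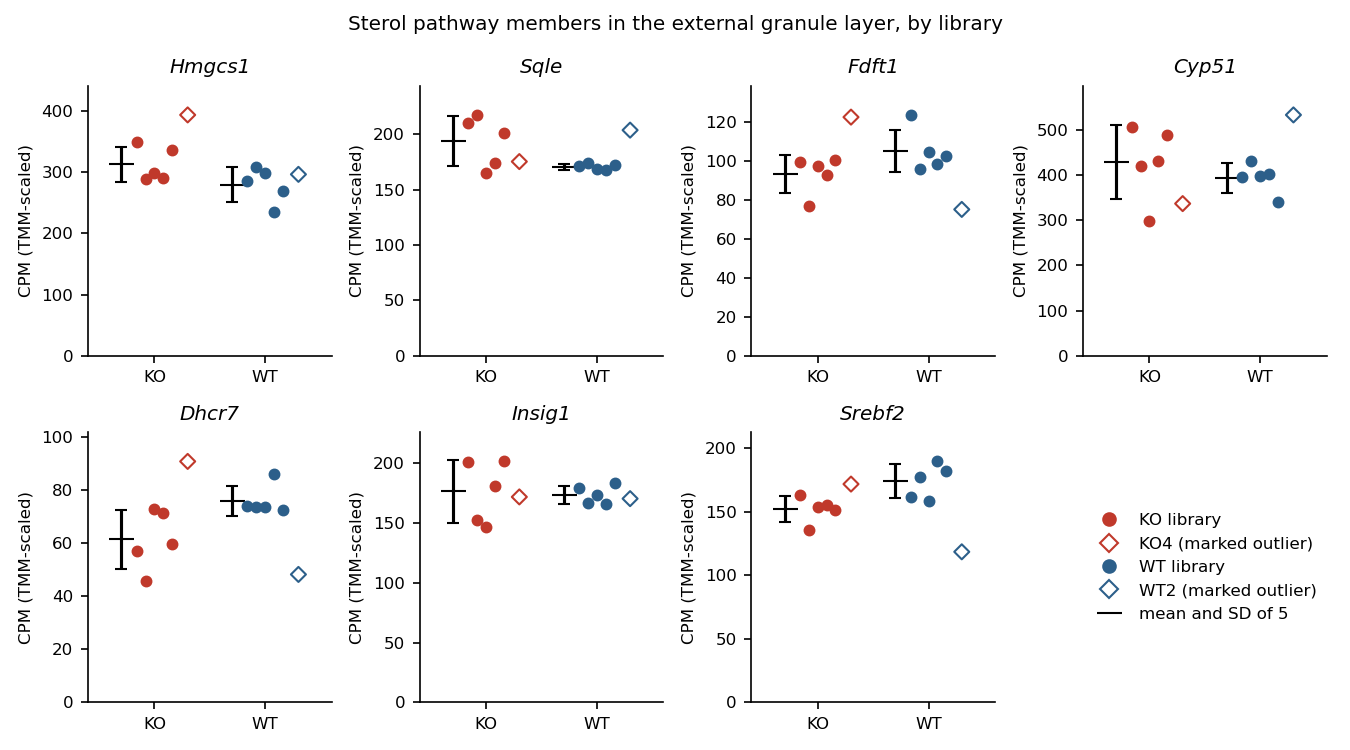
CPM of each member (vertical axes, from 0) in KO libraries (red, left) and WT libraries (blue, right); dots are the compared libraries, open diamonds the marked KO4 and WT2, and black bars the mean and SD of 5. KO and WT overlap for all 7, and for Dhcr7, Fdft1, Srebf2, Sqle and Cyp51 the diamonds stand in the opposite order to the means.

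Within the groups, 4 members spread more between KO than between WT libraries, Sqle, Cyp51, Insig1 and Dhcr7. Over all genes tested 64.5% had the larger coefficient of variation in KO. After each group's mean was removed, the 21 pairs of members had correlations across the 10 libraries with a median Pearson r of 0.30 (14 above 0), against a median of 0.00 over all pairs of tested genes. Cyp51 and Insig1 went together most (r = 0.68), then Sqle and Cyp51 (0.66). Sqle and Dhcr7 ran opposite each other, at r = -0.90. These are descriptions over 10 libraries, in which all genes of a library share its depth and its GC slope. Measured against the mean of the 7 members, Sc5d, a late synthesis enzyme (r = 0.93), was the most alike of the wider sterol list. That mean stands for the members unevenly: their own r with it was 0.10 for Dhcr7, 0.25 for Sqle and up to 0.91 for Insig1. Outside the lists, with clone-style symbols (such as Gm numbers and Rik names) and bare Ensembl IDs passed over, the highest were H3f3aos (r = 0.94), Plch2 (0.93), Zfp28 (0.93), Elk1 (0.93) and Bpnt1 (0.90). They were picked as the highest of all genes tested, and their r was not tested. Their log2 fold changes ran between -0.48 for Plch2 and 0.22 for H3f3aos, with adjusted p in edgeR's test of 0.276 or more.

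The direction of the members went with the base composition of their transcripts. Hmgcs1, Cyp51, Insig1 and Sqle, with 43.1%, 46.2%, 48.2% and 48.6% G and C in the longest transcript, had estimates above 0. Those of Fdft1, Dhcr7 and Srebf2, with 51.8%, 52.8% and 57.9%, were below 0. The same slope ran through all genes tested: the 25% of genes with the least GC had a median log2 fold change of 0.23 and the 25% with the most -0.17. Set against the median of genes with like GC content (10 bins of GC), Srebf2 differed by -0.02, Insig1 by 0.02, Hmgcs1 by -0.04, Fdft1 and Cyp51 by -0.07 and 0.07, Sqle by 0.18 and Dhcr7 by -0.20.

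**Figure D3:**
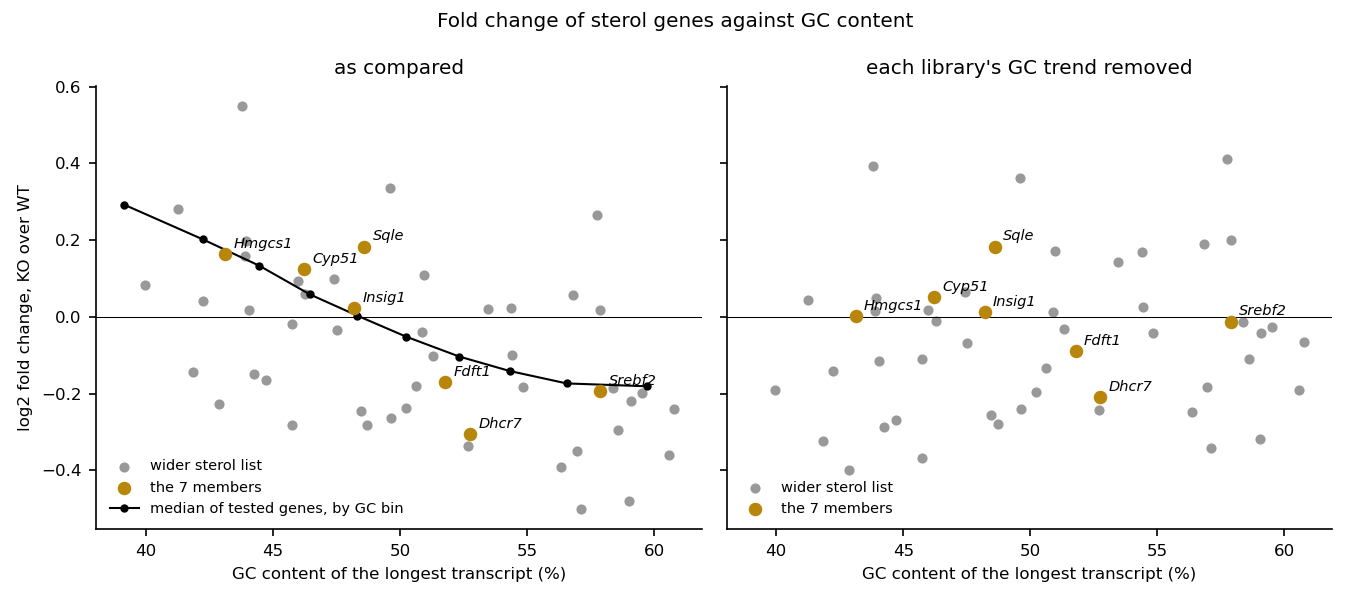
Log2 fold change, KO over WT (vertical axis), against transcript GC content in percent (horizontal axis) for the 7 members (gold) and the rest of the wider sterol list (grey), as compared (left, with the median of all tested genes in 10 GC bins in black) and with each library's GC trend removed (right). On the left, Srebf2, Insig1, Hmgcs1, Fdft1 and Cyp51 lie within 0.07 of the median of their bin; Sqle lies 0.18 above it and Dhcr7 0.20 below.

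Single libraries showed the same slope. Measured as the median log2 level of GC-rich genes minus that of GC-poor genes, each relative to its mean over 12 libraries, it was -0.34, -0.36, 0.30, 0.00 and -0.29 in the KO libraries 2, 3, 5, 6 and 8, against 0.23, 0.05, 0.19, 0.44 and 0.22 in WT1, WT3, WT5, WT6 and WT7. KO2, KO3 and KO8 were low, and these are the KO libraries with the lowest Dhcr7 and the highest Sqle; KO5, with the WT-like value, had the highest Dhcr7 and the lowest Sqle of the KO libraries. The marked libraries ran the other way, 0.30 in KO4 and -0.73 in WT2, as their Dhcr7, Fdft1, Srebf2, Sqle and Cyp51 did. Hmgcs1, at 393 CPM in KO4 and 296 CPM in WT2, did not, nor did Insig1, at 172 CPM in KO4 and 170 CPM in WT2. Among the compared libraries the slope differed between KO and WT, so its part cannot be told apart from that of the knockout. Its part in the members' values was not tested. With each library's GC trend removed, the log2 fold changes were 0.00 for Hmgcs1, 0.18 for Sqle, -0.09 for Fdft1, 0.05 for Cyp51, -0.21 for Dhcr7, 0.01 for Insig1 and -0.01 for Srebf2. Sqle, whose estimate moved least, had an adjusted p in edgeR's test of 0.346 and Dhcr7 one of 0.342 there, and 0 of 7 passed, where 0.0372% of all genes did.

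**Figure D4:**
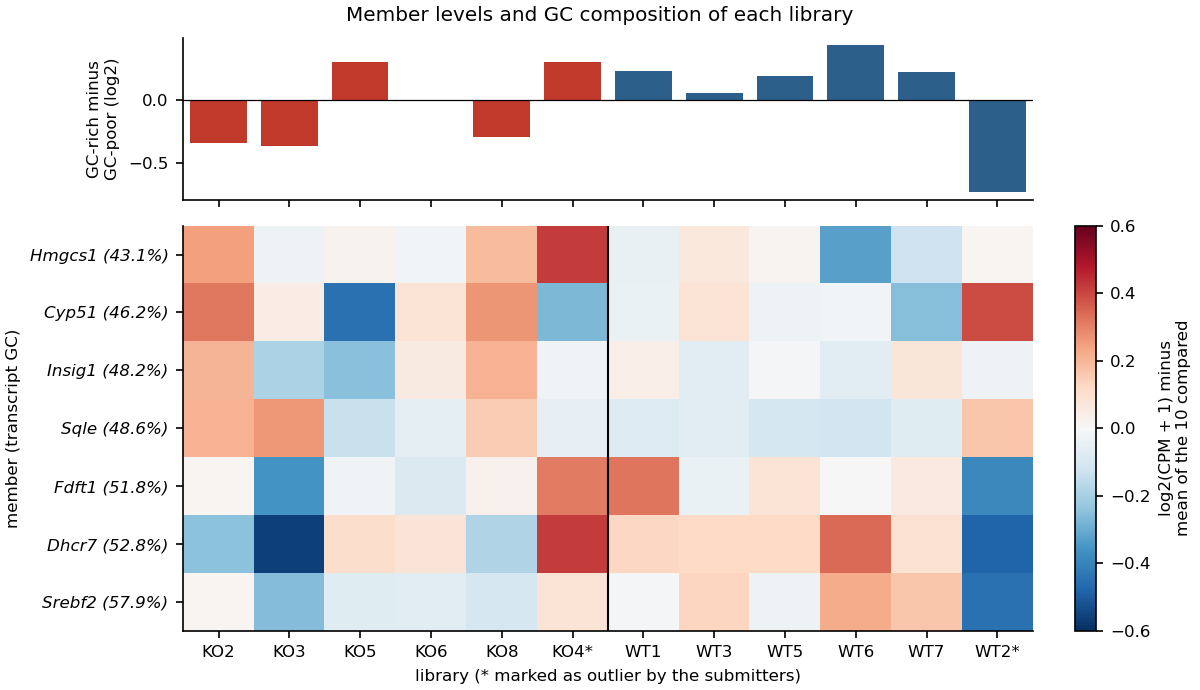
Upper panel: median log2 level of GC-rich minus GC-poor genes in each library (KO red, WT blue). Lower panel: log2(CPM + 1) of each member minus its mean over the 10 compared libraries, members ordered by transcript GC; Dhcr7 is lowest in KO3 and WT2, where the upper bars reach -0.36 and -0.73.

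Other genes of the pathway were taken from the wider list, which was chosen with earlier results of these data known. Of its 54 genes 51 were tested; the hydroxylases Cyp46a1, Ch25h and Cyp27a1, which turn cholesterol into oxysterols, did not pass the count filter and averaged 0.742, 0.142 and 0.0968 CPM in KO, and 1.11, 0.445 and 0.180 CPM in WT. None of the 51 passed over all genes tested (0.0223% of all genes did), while 1 was higher and 11 were lower at an unadjusted p under 0.05, against 11.8% of all genes higher and 9.97% lower. Their median log2 fold change was -0.10.

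The lower genes were mostly enzymes of synthesis. Of the 21 synthesis enzymes, all tested, 8 were lower in KO and 0 higher with unadjusted p under 0.05, 15 estimates were below 0, and the median log2 fold change was -0.17. The count of 8 moved with single libraries, as did that over all genes, 1340 of 13442 in the main fit. It was 4 without KO3 (6.5% of all genes lower) and 5 each without KO2, WT1, WT5 or WT6 (896 to 1107 genes lower). With KO2 counted as WT it was 2 (3.21%), and with WT2 included 0 (2.08%). Mvd, the decarboxylase that makes isopentenyl diphosphate, had 75.7, 65.4, 113, 115 and 81.7 CPM in KO2 to KO8, against 137, 113, 145, 115 and 121 CPM in WT1 to WT7 (log2 fold change -0.48, SE 0.15, adjusted p = 0.131). KO2, KO3 and KO8 were below all compared WT libraries and KO5 and KO6 reached into the WT range. The cyclase Lss, which folds squalene epoxide into lanosterol, was the enzyme of the 8 whose groups did not overlap, at 21.6 ± 1.74 CPM in KO and 26.3 ± 1.32 CPM in WT (log2 fold change -0.28, adjusted p = 0.181; 1.31% of all genes tested had every KO library below every WT library). The marked libraries reversed it, with 29.9 CPM in KO4 and 17.97 CPM in WT2.

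Others of the 8, besides Dhcr7, were Mvk and Pmvk, which phosphorylate mevalonate, at log2 fold changes of -0.39 and -0.35; Nsdhl, a sterol dehydrogenase, at -0.28; and Acat2, which makes acetoacetyl-CoA, at -0.26, with adjusted p in edgeR's test from 0.174 to 0.217. Idi1, Msmo1 and Hsd17b7, 3 further synthesis enzymes, had log2 fold changes of -0.14, -0.16 and 0.16, with unadjusted p of 0.211 or more.

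The 8 lower enzymes had 45.8% to 59.0% GC. Each lay below the median of its GC bin, but picking them as lower fixed this outcome. Acat2, the least low at -0.26, was already under the lowest bin median, -0.18. Of all 21 enzymes, 15 lay below the median of their bin, with a median difference of -0.20. With the GC trend removed, 8 of 21 again had lower values in KO with unadjusted p under 0.05 and 0 higher ones, with 8.12% of all genes lower there, and 0 passed. With all 12 libraries 0 of 21 were lower at that level (1.55% of all genes were) and the median log2 fold change was -0.05; in the marked libraries Mvd had 134 CPM in KO4 and 49.6 CPM in WT2. Without KO5, 5 of 21 passed the adjusted p as lower (among them Acat2, Mvk, Mvd and Dhcr7), with 10.6% of all genes lower there.

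None of the 11 regulation genes, Srebf2 and Insig1 among them, passed. Scap, the escort and sterol sensor, had 37.1 ± 5.86 CPM in KO and 43.3 ± 3.90 CPM in WT (log2 fold change -0.22, adjusted p = 0.302). Srebf1, the SREBP gene better known for fatty acid synthesis, had 119 ± 23.1 CPM in KO and 136 ± 13.6 CPM in WT (-0.19, adjusted p = 0.379), and Insig2, the second retention protein, 52.4 ± 8.07 CPM in KO and 49.1 ± 6.27 CPM in WT (0.09, adjusted p = 0.683). The protease Mbtps1, which makes the first cut of the SREBP proteins, was 1 of 11 regulation genes lower at an unadjusted p under 0.05, a share of 9.09% against 9.97% of all genes, with 120.0 ± 8.24 CPM in KO and 142 ± 8.54 CPM in WT (-0.24, edgeR unadjusted p = 0.0190, adjusted p = 0.165). The marked libraries had 52.0, 165, 43.5 and 107 CPM in KO4 and 27.3, 94.3, 46.3 and 88.2 CPM in WT2 for Scap, Srebf1, Insig2 and Mbtps1, each in the opposite order to the means. Without KO5, where 22.9% of all genes tested passed, 3 of the 11 did: Srebf1 at log2 fold change -0.30, Mbtps1 at -0.27, and Rnf139.

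Of 12 uptake genes, 1 was higher and 1 lower in KO with unadjusted p under 0.05, or 8.33% each way, against 11.8% of all genes higher and 9.97% lower. The higher one was Vldlr, a lipoprotein receptor that also binds reelin, at 14.8 ± 4.26 CPM in KO and 10.1 ± 2.49 CPM in WT (0.55, adjusted p = 0.164). Its value was 6.72 CPM in KO4 and 20.8 CPM in WT2. Stard4, a cytosolic sterol carrier, had 104 ± 15.8 CPM in KO and 90.6 ± 9.20 CPM in WT (0.20, adjusted p = 0.330), with the opposite order in KO4, at 73.1 CPM, and WT2, at 114 CPM. Of 7 tested genes of efflux and removal, 1 was lower at that level, Nr1h2, an oxysterol receptor, at 34.2 ± 6.48 CPM in KO and 43.9 ± 4.20 CPM in WT (-0.36, adjusted p = 0.154), and at 39.6 CPM in KO4 and 22.2 CPM in WT2. Without KO5, 2 of 12 uptake genes (Vldlr among them) and 1 of 7 efflux genes (Nr1h2) passed, against 22.9% of all genes tested.

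**Figure D5:**
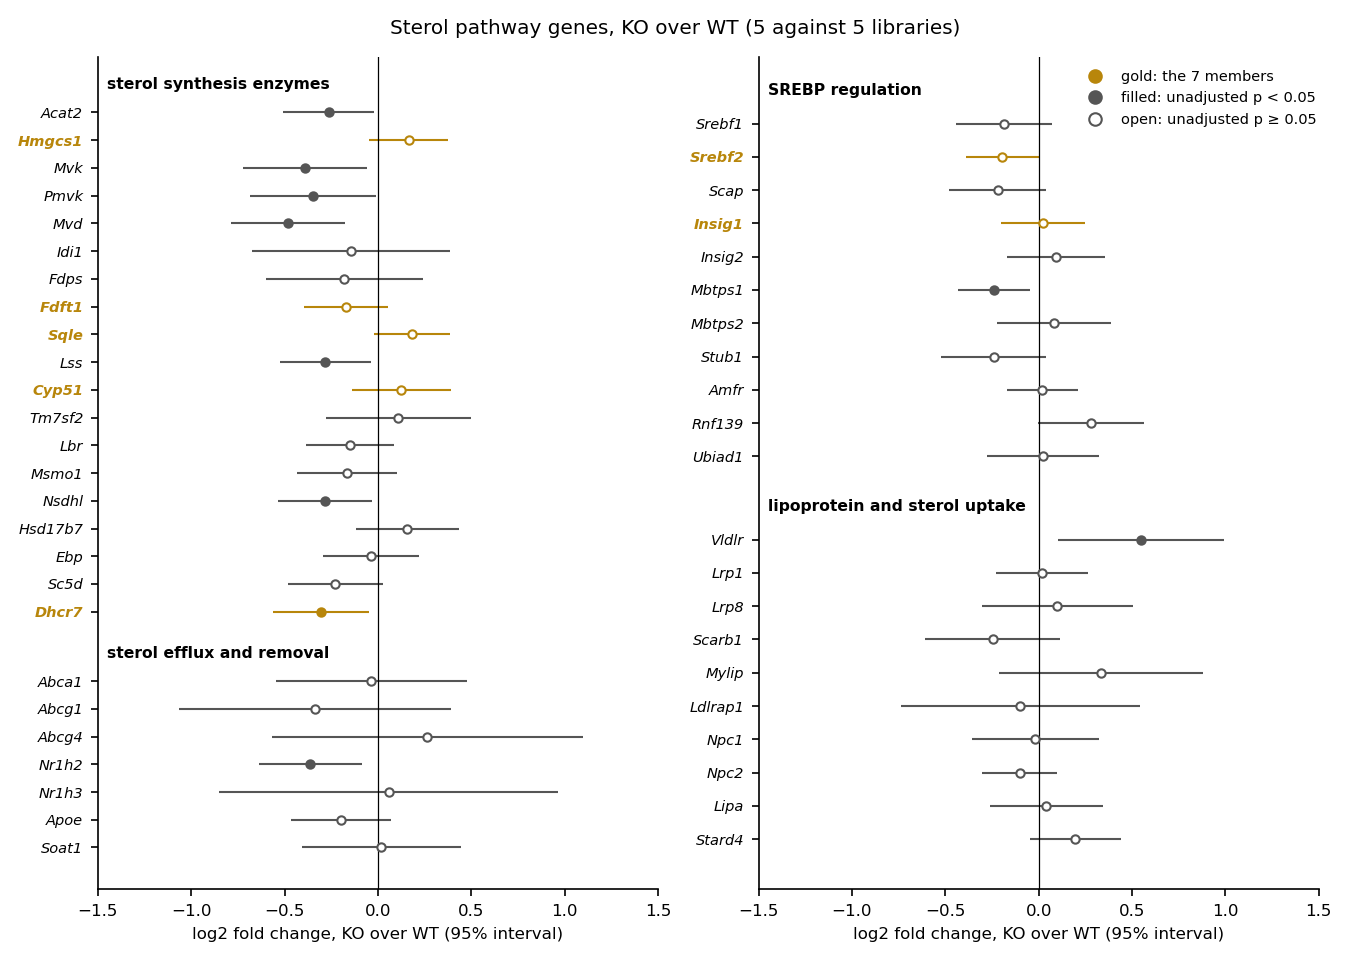
Log2 fold change, KO over WT, with its 95% interval (horizontal axis) for 47 of the 51 tested sterol genes in 4 groups; the 7 members are gold, filled points have an unadjusted p under 0.05 and open ones do not. Of the 19 synthesis enzymes drawn 7 are filled and to the left, and none is filled to the right.

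Among genes of the hedgehog pathway, which sterols act on, Smo, the gene of Smoothened, had 99.8 ± 18.0 CPM in KO and 124 ± 12.5 CPM in WT (log2 fold change -0.32, adjusted p = 0.162), and the target gene Mycn 335 ± 19.4 CPM in KO and 263 ± 31.4 CPM in WT (0.35, adjusted p = 0.131). The log2 fold changes of Ptch1, Gli1, Gli2 and Ccnd1 were 0.31, -0.07, -0.06 and -0.19, with unadjusted p of 0.0828 or more. Of the 15 hedgehog genes tested, 1 was higher (6.67%) and 2 were lower (13.3%) with unadjusted p under 0.05, and none passed. Of all genes, 11.8% were higher and 9.97% lower. DESeq2 called 2 of the 15, Mycn (adjusted p = 0.0309) and Sufu, where 3.34% of all genes passed. Without KO5 edgeR called 4, Ptch1, Smo, Sufu and Mycn, where 22.9% of all genes passed. In the marked libraries Smo had 70.3 CPM in KO4 and 71.7 CPM in WT2, and Mycn 339 CPM in KO4 and 355 CPM in WT2.

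In bulk tissue, fewer cells of a type and less RNA per cell cannot be told apart, and glia make much of the brain's cholesterol. Beside the marker counts below, 11.8% of all genes tested were higher in KO and 9.97% lower at an unadjusted p under 0.05. Bergmann glia and astrocyte markers (10 genes, of which 1 was higher in KO and 0 lower with unadjusted p under 0.05) summed to 812 to 1241 CPM in KO and 589 to 991 CPM in WT, and to 866 CPM in KO4 and 1996 CPM in WT2. The most abundant of these 10 alone averaged 688 CPM in KO and 513 CPM in WT. Log2 fold changes were above 0 for 5 of the 10 and below 0 for 5, with a median of -0.03. Oligodendrocyte lineage markers (11 genes, 7 tested) summed to 332 to 364 CPM in KO and 340.1 to 405 CPM in WT. In the marked libraries they summed to 332 CPM in KO4 and 389 CPM in WT2. The most abundant of these 11 alone averaged 250 CPM in KO and 248 CPM in WT. Of these 2 were lower and 0 higher in KO with unadjusted p under 0.05, among them Mbp (45.0 ± 4.85 CPM in KO and 58.7 ± 7.84 CPM in WT); 4 of the 7 tested had log2 fold changes above 0, with a median of 0.01, while Mag and Mog, which define mature oligodendrocytes, were under 1 CPM in all 10 libraries. Purkinje cell markers (8 genes, of which 4 were higher in KO and 0 lower, with 11.8% of all genes higher) summed to 316 to 544 CPM in KO and 247 to 371 CPM in WT, and to 293 CPM in KO4 and 667 CPM in WT2. Markers of the granule lineage (9 genes, of which 2 were higher in KO and 2 lower) summed to 4593 to 8012 CPM in KO and 4136 to 6265 CPM in WT. The most abundant of these 9 alone averaged 3628 CPM in KO and 2582 CPM in WT. Log2 fold changes were above 0 for 6 of the 9 and below 0 for 3, with a median of 0.06. Atoh1, which defines the precursors, had 95.8 ± 10.8 CPM in KO and 92.2 ± 16.7 CPM in WT. The part of these cell types in the values of the sterol genes was not tested.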

How the data were processed

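RNA was sequenced from laser-captured external granule layer of 12 libraries. The NEBNext Ultra RNA kit was used for library preparation, per the labels' protocols. The deposited values are read counts per gene, not normalized. Build mm10 and the tools cutadapt 1.16, STAR 2.5.3a, HTSeq 0.6.1 and DESeq2 are named per the submitters' processing notes; the sources used here give no settings, annotation release or strand option. A table had 53379 rows of genes, and 5 summary rows were left out. Reads placed in several genes or places are not in the counts: 64.4% to 67.6% of alignments were to several places and 6.81% to 8.13% of uniquely placed reads were ambiguous. Identifiers were matched to GENCODE M21 (GRCm38), 53274 of them. The spans of Cyp51, Fdft1 and Hmgcs1 overlap genes on the opposite strand (Akap9, Ctsb and Gm48342), as that of Mvd does Gm20388. Where counting did not use strand, reads in any shared exons cannot be told apart.

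Groups are by title. Genes were filtered with filterByExpr (minimum count 10) to 13442, TMM-scaled and fitted in edgeR 4.0.16 (R 4.3.3, limma 3.58.1) with a robust quasi-likelihood fit, p-values being adjusted by Benjamini-Hochberg over all genes tested. For single genes, exact permutation tests (two-sided) were run on log2(CPM + 1) over 252 arrangements (smallest p 0.00794); means and SDs are of CPM, with filter and factors over 12 libraries. Levels per kb use the union of annotated exons. The GC correction used an offset per library, the spline (5 degrees of freedom) of its log2 CPM against transcript GC content. The fit, with and without the GC offset, was run on simulated counts with known changes. Those counts held no GC slope and no outlying library, so they do not show how the fit handles either. The counts of all 30 pairs of libraries within a group differed beyond sampling noise, with chi-square values of 6.15 to 85.3 per degree of freedom. Members and lists were chosen with earlier results of these data known. Named genes are the members, Skil, set partner genes, wider-list genes with unadjusted p under 0.05, 6 hedgehog genes and the 5 genes most alike. For the last, clone-style symbols and bare Ensembl IDs were passed over. Mbp, Mag, Mog and Atoh1 were named after their values were seen. Some genes that this rule names are not reported here; counts over lists include them. Alternatives were DESeq2 1.42.0, other scalings, filters and library sets, the replicate number as a block, the GC offset, and each library left out.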

Additional observations from a re-analysis of the deposited data

Results flagged for a closer look

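One result stood apart within its group. Dhcr7 in WT6 was at 86.1 CPM, while the other 4 compared WT libraries lay between 72.3 and 74.0 CPM, a gap wide enough for a library far from the others by Dixon's criterion. It was 1 of 60 groups of 5 looked at, and chance flags about 1 in 20. WT6 also had the highest value of GC-rich over GC-poor genes, 0.44; its part in this value was not tested. Without WT6 the log2 fold change of Dhcr7 was -0.26 (unadjusted p = 0.0635, edgeR).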

How the results depend on the processing

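None of the 7 members passed under any alternative run except without KO5, where Dhcr7 did, so that leaving out 1 library gave 0 to 1 members. For the wider sterol list the count was 1 with DESeq2 (Mvd), 2 with no filter (Mvd among them) and 0 to 11 with 1 library left out, the highest without KO5. Over all genes the count was 449 with DESeq2, 965 with no filter, 1 with all 12 libraries, 1 with KO4 included, 0 with KO2 counted as WT, 5 with the GC offset and 0 to 3102 with 1 library left out, again highest without KO5. Skil passed at log2 fold changes of -0.70 with DESeq2 and -0.70 with no filter, -0.94 with the GC offset and -1.04 with all 12 libraries and the GC offset, and had -0.78 to -0.59 with 1 library left out, passing without KO5. The cause was not tested.

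The log2 fold changes of Sqle, Dhcr7 and Srebf2 kept their sign in all 23 alternatives. With library size alone, which put the median of all genes at -0.08, against 0.00, Insig1 had -0.068. With KO2 counted as WT, Cyp51 had -0.0072, Insig1 -0.064, Idi1 0.12 and Gli1 0.034. With all 12 libraries, Cyp51 had -0.011, Ptch1 -0.041, Gli1 0.057 and Gli2 0.0051. With the GC offset, Gli1 had 0.099 and Gli2 0.12. With all 12 libraries and the GC offset, Fdft1 had 0.018, Cyp51 -0.040, Scap 0.031, Srebf1 0.039, Ptch1 -0.047, Gli1 0.12 and Gli2 0.065. With 1 library left out, Insig1 ran between -0.027 and 0.083, Idi1 between -0.31 and 0.0036 and Gli2 between -0.11 and 0.047.

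Replicate numbers 3, 5 and 6 occur in both groups, but the deviations of same-numbered libraries correlated at 0.11, -0.05 and 0.09, so the numbers were not taken to pair them. With the number as a block, only libraries numbered 3, 5 and 6 inform the KO effect. The other compared libraries carry numbers that occur in a single group. Under the block, 2 of 21 synthesis enzymes were lower at an unadjusted p under 0.05, where 276 of all 13442 genes tested were. There 0 genes passed, and 0 with the block and the GC offset. Under the block Cyp51 had -0.12, Insig1 -0.084, Idi1 0.026, Gli1 0.065 and Ccnd1 0.027. With block and GC offset, Hmgcs1 had -0.045, Cyp51 -0.18, Insig1 -0.11, Hsd17b7 -0.045, Insig2 -0.035, Srebf1 0.021, Stard4 -0.044, Gli1 0.18 and Ccnd1 0.053. The number of libraries limits these comparisons: 95% intervals of the members reach to 32.4% lower and 31.0% higher.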
